A study of Homo sapiens with 15 samples.

Results

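The 9 genes described here encode proteins that detect viral-type RNA and carry the interferon signal: the RNA sensors IFIH1 and TLR3, the receptor kinases JAK1 and TYK2, the signal transducer STAT2, and the interferon regulatory factors IRF1, IRF3, IRF7 and IRF9. They were chosen by symbol, and all 9 were found among the 16604 genes measured by RNA sequencing in 15 samples of 5 human cell lines, 3 biological replicates per line. OVCAR4 cells derive from a high-grade serous cancer of the ovary and have long been kept as a cell line. The parental samples (Ovcar4Parental) are sensitive to carboplatin and cisplatin. Ov4Cis is OVCAR4 made resistant to cisplatin and Ov4Carbo is OVCAR4 made resistant to carboplatin, each by growth in rising drug concentrations until its IC50 had increased. Ov4Carbo4 and Ov4Carbo7 are carboplatin-resistant lines that each grew from 1 cell of Ov4Carbo, so each is 1 clone, and all 5 lines share the OVCAR4 origin and the same serum-containing medium. The labels do not say whether drug was present when RNA was taken.

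Cells sense double-stranded RNA with IFIH1 (MDA5) in the cytoplasm and with TLR3 in endosomes, and both routes lead to phosphorylation of IRF3, which is made constitutively, and of IRF7, which is itself induced by interferon. These factors switch on type I interferon genes. Secreted interferon binds a receptor that carries JAK1 and TYK2, and these kinases phosphorylate STAT2. With IRF9 it takes part in ISGF3, the complex that binds the interferon-stimulated response element (ISRE) of many antiviral genes. IRF1 is a further factor, induced mainly through the GAS element. IFIH1, TLR3, STAT2, IRF1, IRF7 and IRF9 are known as interferon-inducible genes, whereas IRF3, JAK1 and TYK2 are not known for it.

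The promoters of 3 of the inducible genes are printed because the results turn on whether such genes moved together. They are the 250 bases before the start site in the RefSeq table (GRCh38.p14), 5′ to 3′ on the strand of the gene. Capitals mark matches to the ISRE core (GAAA, any 2 bases and GAAA again, searched on both strands) or to GAS (TTC, any 3 bases and GAA, which reads the same on both strands). Neither motif contains the other. IFIH1 lies at chr2:162318685-162318934 on the minus strand, TLR3 at chr4:186068906-186069155 on the plus strand and IRF1 at chr5:132490774-132491023 on the minus strand.
IFIH1: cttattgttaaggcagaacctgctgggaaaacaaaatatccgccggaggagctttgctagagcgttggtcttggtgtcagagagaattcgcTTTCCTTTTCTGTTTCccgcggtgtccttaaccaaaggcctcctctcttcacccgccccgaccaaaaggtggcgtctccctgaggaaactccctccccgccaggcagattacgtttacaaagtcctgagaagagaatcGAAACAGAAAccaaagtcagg
TLR3: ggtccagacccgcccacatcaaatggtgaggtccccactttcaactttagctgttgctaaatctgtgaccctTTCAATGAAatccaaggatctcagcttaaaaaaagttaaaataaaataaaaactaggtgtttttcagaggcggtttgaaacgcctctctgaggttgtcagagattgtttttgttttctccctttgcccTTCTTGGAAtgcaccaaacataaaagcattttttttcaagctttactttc
IRF1: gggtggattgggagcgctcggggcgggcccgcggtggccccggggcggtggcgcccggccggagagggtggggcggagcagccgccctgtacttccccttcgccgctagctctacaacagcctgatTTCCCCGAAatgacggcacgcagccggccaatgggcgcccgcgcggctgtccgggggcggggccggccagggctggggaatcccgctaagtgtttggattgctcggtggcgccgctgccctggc
The IFIH1 sequence held 3 ISRE matches, 2 of which overlap from base -159 to base -144 before the start and the other from -21 to -12. The TLR3 sequence held 2 GAS matches and that of IRF1 held 1, from -124 to -116. Of the 7 genes with a promoter in the table, IFIH1 was the only 1 with an ISRE match, TLR3, IRF1 and IRF9 had a GAS match, and STAT2, JAK1 and TYK2 had neither. For JAK1, 3 start sites were searched. The bases just after them were not found in a JAK1 transcript of the GENCODE v29 annotation, whereas those of the other genes searched were. IRF3 and IRF7 were not searched. Among all 35116 promoters of this length in the table, 3.02% held the ISRE core and 6.57% the GAS motif. A match is a string of letters and not a shown binding site, and a window without one says nothing about the factor.

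Values are log2 RPKM (the log2 of read number divided by gene length and by sequencing depth). They were normalised by the authors for length and GC content. How reads in shared exons or across exon junctions were counted is not known, so rankings between genes are approximate. The median of all genes was 2.77 in each sample. The number of reads per sample was not used here, so the depth is unknown and the replicates alone give the precision. Replicate 1 of Ov4Carbo stood apart from its line: over all genes its root-mean-square difference from replicates 2 and 3 was 0.772 and 0.716 log2 units, whereas these differed by 0.572 and the replicates of other lines by 0.299 to 0.558. It is therefore shown apart, and values of Ov4Carbo are given with and without it where it moves them. The titles carry 2 series of numbers, one with Ov4Carbo replicate 1 and both clones, the other with the parental, Ov4Cis and other Ov4Carbo samples. The labels do not call these batches, but a difference between series cannot be told apart from a difference between either clone and the parental line or Ov4Cis. The same holds for either clone against Ov4Carbo once replicate 1 is left out. With replicate 1 kept, it is the only Ov4Carbo sample that shares the series of the clones. Of the markers of serous ovarian epithelium, 11 were measured. PAX8 was high in all lines, with line means between 5.85 and 6.74. CDH1, which encodes E-cadherin, fell from 4.63 in the parental line to -3.52 in Ov4Cis (limma adjusted p = 2.25e-09), and EPCAM means were 5.98 and 1.17. Of the 11 markers, 8 fell and 2 rose in Ov4Cis, 5 and 2 in Ov4Carbo (4 and 2 without replicate 1), 7 and 2 in Ov4Carbo4, and 7 and 1 in Ov4Carbo7, against the parental line. Of all genes, 16.4% fell and 19.8% rose in Ov4Cis, and 16.2% and 17.7% in Ov4Carbo. The shares were 18% and 21.6% in Ov4Carbo4, and 20.4% and 22.2% in Ov4Carbo7. In Ov4Carbo7, MUC16 had a log2 fold change of -4.81 (adjusted p = 9.4e-06) and EPCAM of -2.97 (adjusted p = 2.92e-07). The part of these shifts in the results below was not tested. WT1, another marker, was low in all lines (-5.07 to -1.52). Of the immune markers only CD14 was measured, at line means between -1.34 and 0.58, and the median of the 3 endothelial markers measured lay between -2.67 and 0.28 per sample and that of the 4 fibroblast markers between -4.90 and -0.31. CDH5, among the endothelial markers, nevertheless reached a mean of 5.13 in Ov4Cis and 4.42 in Ov4Carbo4, and COL1A1, among the fibroblast markers, 3.63 in Ov4Carbo4.

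JAK1 had the highest level of the 9 genes on the log2 RPKM scale, with a mean over 15 samples of 5.76, above 92.5% of all genes. TYK2 (4.83), IRF3 (4.78) and STAT2 (4.54) followed, then IRF1 (3.21). The levels of IRF7 (1.43), IFIH1 (1.31) and TLR3 (0.26) lay in the lower part of the range, and IRF9 at -2.24 exceeded 4.79% of genes only. So the receptor kinases, IRF3 and STAT2 were present at high levels in every line, while both RNA sensors and IRF7 were low in the parental line. Across the 5 lines, 6 of the 9 genes passed the moderated F-test of limma (adjusted p under 0.05 over all genes), where 76.9% of all genes passed. The 6 were IRF3 (adjusted p = 4.13e-07), JAK1 (0.000207), IFIH1 (0.00048), TLR3 (0.00204), TYK2 (0.00575) and IRF7 (0.0236). STAT2 (0.0962), IRF9 (0.26) and IRF1 (0.397) did not pass. The range of the 5 line means was widest for IFIH1, at 3.12 log2 units, and narrowest for IRF1, at 0.39.

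**Figure D1:**
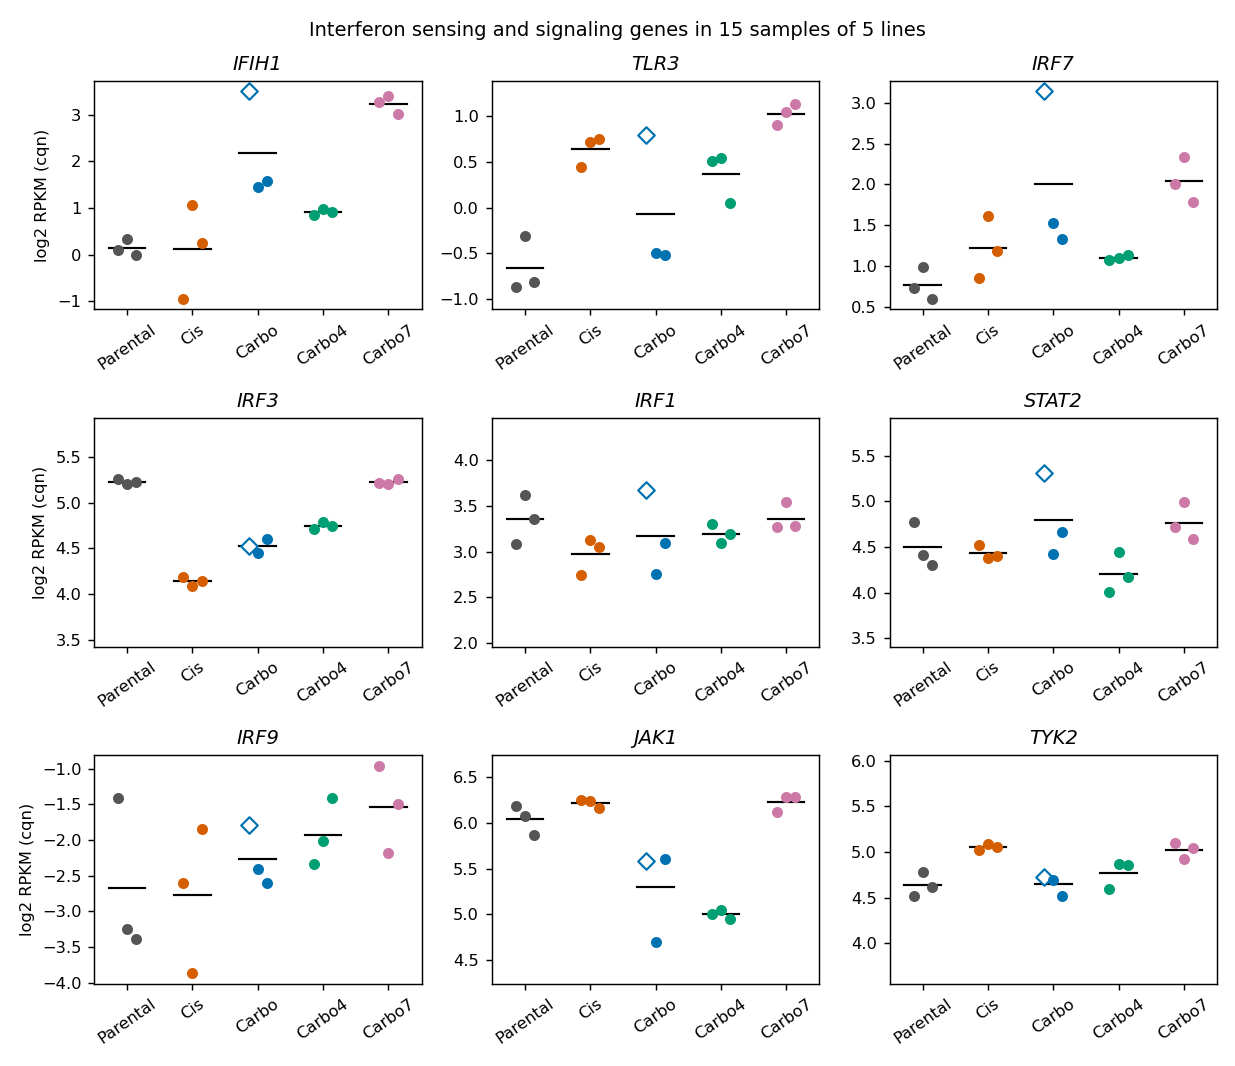
Level of each gene (vertical axis, log2 RPKM) in the 15 samples, by line (horizontal axis), with black bars at the line means and an open diamond for Ov4Carbo replicate 1. The diamond lies at the top of its line for IFIH1, IRF7, TLR3, STAT2 and IRF1 but among the other replicates for IRF3, and the Ov4Carbo7 points lie above all parental points for IFIH1, TLR3, IRF7 and TYK2.

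Each resistant line was first compared with the parental cells. Of the 9 genes, 3 passed in Ov4Cis (36.2% of all genes passed), 4 in Ov4Carbo (34%), 3 in Ov4Carbo4 (39.7%) and 4 in Ov4Carbo7 (42.6%). As shares of 9 these counts lie near those of all genes. In Ov4Cis 2 rose and 1 fell, where 19.8% of all genes rose and 16.4% fell. Ov4Carbo had 2 rises and 2 falls (17.7% and 16.2% of all genes), and Ov4Carbo4 had 1 rise and 2 falls (21.6% and 18%). In Ov4Carbo7 4 rose and 0 fell (22.2% and 20.4%). The replicates did not overlap with the parental ones for 3 genes in Ov4Cis (53.4% of all genes), 4 in Ov4Carbo (38.4%), 5 in Ov4Carbo4 (58.1%) and 4 in Ov4Carbo7 (56.5%). Counting only changes of at least 1 log2 unit, the numbers were 2, 2, 2 and 3 of 9, beside 15.9%, 12.7%, 15.1% and 17% of all genes. The median log2 fold change over the 9 genes was -0.03 for Ov4Cis, 0.30 for Ov4Carbo, 0.14 for Ov4Carbo4 and 0.38 for Ov4Carbo7, where that of all genes was 0.04, 0.03, 0.07 and 0.02. The 4 comparisons share the parental samples.

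**Figure D2:**
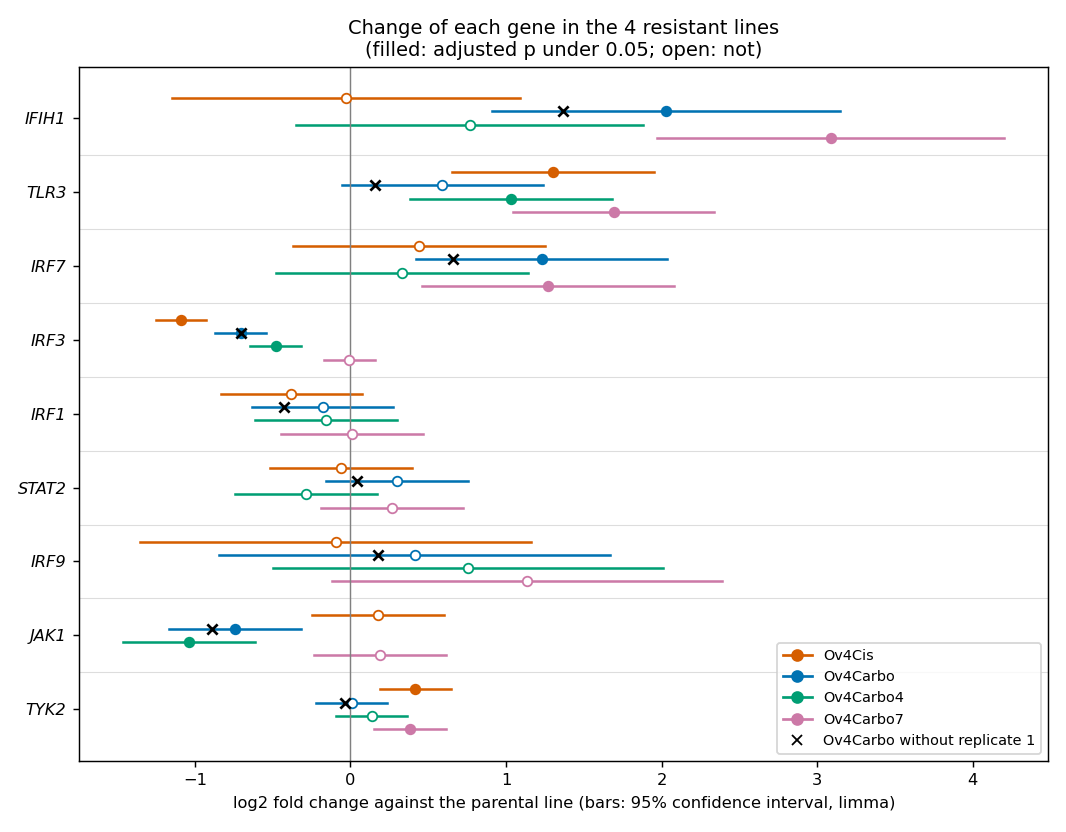
Log2 fold change of each gene against the parental line (horizontal axis) in the 4 resistant lines, with 95% confidence intervals from limma. Filled points passed at an adjusted p under 0.05, open points did not, and crosses give Ov4Carbo without replicate 1, where the change of IFIH1 fell from 2.03 to 1.37 and that of IRF7 from 1.23 to 0.66.

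IFIH1 (ENSG00000115267, chromosome 2), the cytoplasmic sensor of long double-stranded RNA, was 8.5-fold higher in Ov4Carbo7 than in the parental line. Its parental values were 0.10, 0.33 and -0.005 log2 RPKM in replicates 1 to 3, and the Ov4Carbo7 values 3.28, 3.39 and 3.02, well above them. In Ov4Carbo it stood at 3.49 in replicate 1 and at 1.45 and 1.57 in replicates 2 and 3, all above the parental line. The Ov4Carbo4 values of 0.84, 0.97 and 0.92 also lay above it, whereas those of Ov4Cis, at -0.95, 1.05 and 0.24, lay on both sides. The log2 fold change was 3.09 in Ov4Carbo7 (SE 0.51, limma adjusted p = 0.000419) and 2.03 in Ov4Carbo (SE 0.51, adjusted p = 0.00968), or 1.37 without replicate 1 (SE 0.41, adjusted p = 0.0199). Fitted with only these 2 lines, the adjusted p in Ov4Carbo was 0.0558. For Ov4Carbo4 the log2 fold change of 0.77 did not pass (adjusted p = 0.264), although the groups did not overlap, which held for 58.1% of all genes. Fitted with only these 2 lines, whose replicates were close, it passed (adjusted p = 0.00304). No difference was found in Ov4Cis, with an interval of -1.15 to 1.09 (95% confidence).

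TLR3 (ENSG00000164342, chromosome 4), the endosomal sensor of double-stranded RNA, was low in the parental line, at -0.87, -0.31 and -0.81 log2 RPKM. In Ov4Cis it stood at 0.44, 0.72 and 0.75, in Ov4Carbo4 at 0.51, 0.55 and 0.05 and in Ov4Carbo7 at 0.90, 1.04 and 1.14. All 9 values lay above the 3 parental ones. In Ov4Carbo only replicate 1 was high, at 0.80, while replicates 2 and 3 at -0.50 and -0.52 lay among the parental values. The log2 fold change was 1.69 in Ov4Carbo7 (SE 0.30, limma adjusted p = 0.00064), 1.30 in Ov4Cis (SE 0.30, adjusted p = 0.00424) and 1.03 in Ov4Carbo4 (SE 0.30, adjusted p = 0.0154). TLR3 thus rose in 3 of the 4 resistant lines. Among them, both clones carry title numbers of another series than the parental samples, so line and series cannot be told apart there. With a term for the series, estimated within Ov4Carbo alone, TLR3 stood at 0.38 in Ov4Carbo7 (limma adjusted p = 0.375) and at -0.27 in Ov4Carbo4 (adjusted p = 0.542). In Ov4Carbo its log2 fold change of 0.59 did not pass (adjusted p = 0.146), and without replicate 1 it was 0.16 (adjusted p = 0.54). The Ov4Carbo4 call was lost without parental replicate 1 (adjusted p = 0.0538), Ov4Carbo4 replicate 1 (0.0515) or Ov4Carbo4 replicate 2 (0.0552), while without Ov4Carbo replicate 1 its adjusted p was 0.000505.

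IRF3 (ENSG00000126456, chromosome 19), the constitutive factor downstream of both sensors, was the most evenly measured of the 9. The parental values were 5.26, 5.21 and 5.22 log2 RPKM and those of Ov4Carbo7 5.21, 5.20 and 5.26, which overlap. In Ov4Carbo4 it stood at 4.72, 4.79 and 4.75, in Ov4Carbo at 4.52, 4.45 and 4.60, and in Ov4Cis at 4.18, 4.09 and 4.15. The samples of these 3 lines lay below every parental sample, and the 3 lines did not overlap with each other. The log2 fold change was -1.09 in Ov4Cis (SE 0.07, limma adjusted p = 2.72e-07), -0.71 in Ov4Carbo (SE 0.07, adjusted p = 2.48e-05) and -0.48 in Ov4Carbo4 (SE 0.07, adjusted p = 0.000289). Turned back to RPKM, the mean levels were 37.6 in the parental line and 17.7 in Ov4Cis. The Ov4Carbo7 difference was -0.0067, with a 95% interval from -0.17 to 0.16. Without Ov4Carbo replicate 1 the Ov4Carbo change was again -0.71 (adjusted p = 7.72e-05). In the GENCODE v29 annotation 19.3% of the exonic bases of IRF3 also belong to BCL2L12 on the opposite strand, and whether the counting used strand is not given in the sources used here. BCL2L12 was likewise lower in Ov4Cis (-0.82, adjusted p = 3.19e-05) and Ov4Carbo (-0.81, adjusted p = 6.53e-05), while its -0.09 in Ov4Carbo4 did not pass (adjusted p = 0.495). The part of shared reads in the IRF3 values was not tested.

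IRF7 (ENSG00000185507, chromosome 11), the interferon-induced factor that amplifies interferon production, stood at 0.73, 0.99 and 0.60 log2 RPKM in the parental line and at 2.01, 2.33 and 1.78 in Ov4Carbo7. In Ov4Carbo it was 3.14 in replicate 1, the highest value of all 15, and 1.53 and 1.33 in replicates 2 and 3. Both lines lay above every parental sample. The values in Ov4Carbo4 were 1.07, 1.10 and 1.14, just above the parental line, and those in Ov4Cis 0.86, 1.61 and 1.18. IRF7 rose by 1.27 in Ov4Carbo7 (SE 0.37, limma adjusted p = 0.0156) and by 1.23 in Ov4Carbo (SE 0.37, adjusted p = 0.0236). Without Ov4Carbo replicate 1 the rise in that line was 0.66 (SE 0.21, adjusted p = 0.0277), and that in Ov4Carbo7 kept its size with an adjusted p of 0.000218. The Ov4Carbo call was lost without parental replicate 1 (adjusted p = 0.053) or replicate 3 (0.0728), and when fitted with only these 2 lines (0.14). The Ov4Carbo7 call was lost without parental replicate 3 (0.0512) or Ov4Carbo7 replicate 2 (0.0584). In Ov4Cis (0.44, adjusted p = 0.39) and Ov4Carbo4 (0.33, adjusted p = 0.517) it did not pass.

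JAK1 (ENSG00000162434, chromosome 1), the kinase used by type I, II and III interferon receptors, was lower in the carboplatin-resistant population and in 1 of its clones. The parental values were 6.18, 6.07 and 5.87 log2 RPKM. Ov4Carbo4 stood at 5.001, 5.05 and 4.95 and Ov4Carbo at 5.59, 4.70 and 5.61, all below the parental line, with replicate 2 of Ov4Carbo the lowest of the 15 samples. Ov4Cis at 6.25, 6.24 and 6.16 and Ov4Carbo7 at 6.12, 6.28 and 6.28 overlapped with the parental values. The log2 fold change was -1.04 in Ov4Carbo4 (SE 0.19, limma adjusted p = 0.0011) and -0.74 in Ov4Carbo (SE 0.19, adjusted p = 0.0114). Without replicate 1 the Ov4Carbo value was -0.89 (adjusted p = 0.00544), without replicate 2 it was -0.44 and still passed, and fitted with only these 2 lines it did not pass (adjusted p = 0.125). In Ov4Cis the difference was 0.18 (95% interval -0.25 to 0.60) and in Ov4Carbo7 0.19 (-0.23 to 0.61).

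TYK2 (ENSG00000105397, chromosome 19), the partner kinase of JAK1 at the type I receptor, varied least among the genes that passed, with line means between 4.64 in the parental line and 5.06 in Ov4Cis. It was 4.52, 4.78 and 4.61 log2 RPKM in the parental replicates, 5.03, 5.09 and 5.06 in Ov4Cis and 5.10, 4.92 and 5.05 in Ov4Carbo7. The last 2 lines lay above every parental sample. TYK2 rose by 0.42 in Ov4Cis (SE 0.11, limma adjusted p = 0.00783) and by 0.38 in Ov4Carbo7 (SE 0.11, adjusted p = 0.0113), which is 1.34-fold and 1.3-fold. In Ov4Carbo (0.01, adjusted p = 0.962) and Ov4Carbo4 (0.14, adjusted p = 0.339) no difference passed.

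STAT2 (ENSG00000170581, chromosome 12), the transducer specific to type I and III interferon, stood at 4.78, 4.41 and 4.30 log2 RPKM in the parental line and passed against it in 0 of 4 lines. Its Ov4Carbo values were 5.31, 4.42 and 4.66, so that replicate 1 was again the highest of all 15 samples. The log2 fold changes ran from -0.29 in Ov4Carbo4 to 0.30 in Ov4Carbo. IRF1 (ENSG00000125347, chromosome 5) also passed in 0 lines, with parental values of 3.08, 3.62 and 3.36 and log2 fold changes between -0.38 in Ov4Cis (95% interval -0.84 to 0.07) and 0.01 in Ov4Carbo7 (-0.45 to 0.46). At an unadjusted p under 0.05, 0 of these 8 values passed. Of the exonic bases of IRF1, 22% also belong to genes on the opposite strand, IRF1-AS1 (C5orf56 in GENCODE v29) among them.

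IRF9 (ENSG00000213928, chromosome 14), the DNA-binding subunit of ISGF3, was barely detected. It stood at -1.41, -3.24 and -3.38 log2 RPKM in the parental replicates and at -2.61, -3.87 and -1.84 in Ov4Cis. The highest of the 15 values was -0.96, in Ov4Carbo7 replicate 1. Changes against the parental line ran from -0.10 in Ov4Cis to 1.13 in Ov4Carbo7 (SE 0.58, limma adjusted p = 0.135), and 0 of 4 passed. The Ov4Carbo7 value was 1.77 without parental replicate 1, the replicate that was high (adjusted p = 0.0197). In GENCODE v29, 48.4% of the exonic bases of IRF9 are shared with AL136295.5, a protein-coding gene on the same strand. AL136295.5 is not among the genes of the deposited data. How reads in shared bases were counted is not given in the sources used here, so a low level of IRF9 RNA and reads left uncounted cannot be told apart.

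Replicate 1 of Ov4Carbo differed from replicates 2 and 3 more in most of the inducible genes than in the others, which is a description of 1 sample with no test. It exceeded the mean of replicates 2 and 3 by 1.99 log2 units (3.96-fold) for IFIH1, where replicates 2 and 3 differed by 0.12. The excess was 1.71 (3.26-fold) for IRF7 and 1.31 (2.47-fold) for TLR3. Over all genes 2.31% showed a larger absolute gap than IFIH1, 3.39% a larger gap than IRF7 and 5.91% a larger gap than TLR3. STAT2 (0.77), IRF1 (0.75) and IRF9 (0.71) were also higher, each by more than the gap between replicates 2 and 3, and 16%, 16.7% and 18.1% of all genes showed larger gaps. For IRF3 the gap was -0.0015, exceeded by 99.8% of genes, and for TYK2 0.12. JAK1 was 0.43 higher, less than the 0.91 between replicates 2 and 3. So all 6 inducible genes were higher in replicate 1 than in both other replicates, as was TYK2, but not JAK1 or IRF3. This makes 7 of 9, where replicate 1 exceeded both others for 33.7% of all genes. In level this sample lay near Ov4Carbo7 for IFIH1 (0.27 above its mean) and TLR3 (0.23 below) and above it for IRF7, by 1.10. For IRF3 it lay 0.70 below Ov4Carbo7, as did the mean of replicates 2 and 3, and for JAK1 0.64 below.

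**Figure D3:**
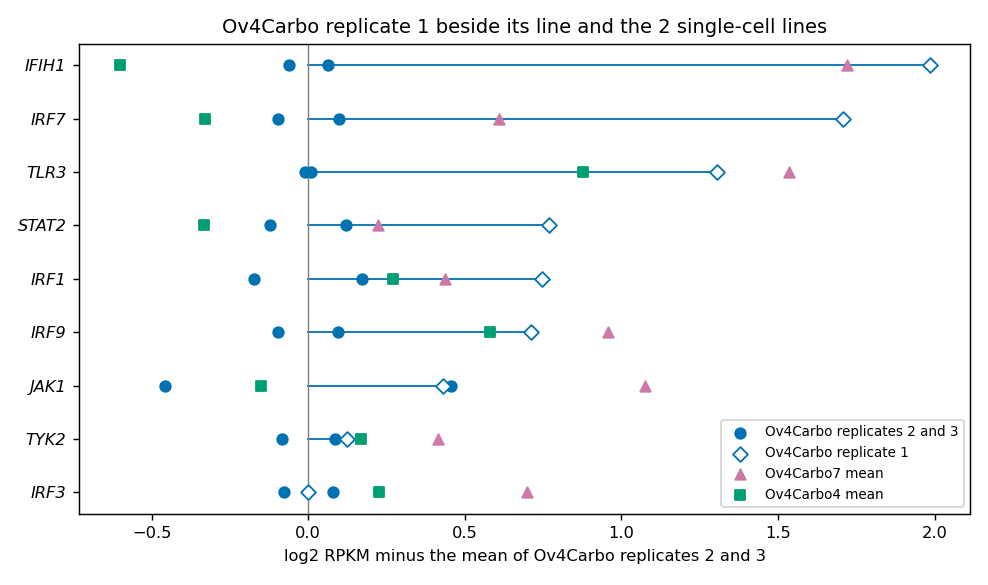
Difference in log2 RPKM (horizontal axis) from the mean of Ov4Carbo replicates 2 and 3, for Ov4Carbo replicate 1 (open diamonds), replicates 2 and 3 (circles), the Ov4Carbo7 mean (triangles) and the Ov4Carbo4 mean (squares), per gene. Replicate 1 is displaced by 1.99 for IFIH1 and by -0.0015 for IRF3, while Ov4Carbo7 is displaced for both.

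The next comparisons set the clones against their source population and against each other. Between the clones, whose samples carry title numbers of the same series, 4 of 9 genes were higher in Ov4Carbo7 and 0 lower, where 51.1% of all genes passed, 24% higher and 27.1% lower. Of these, 2 differed by at least 1 log2 unit, beside 20.9% of all genes. IFIH1 was 5-fold higher (log2 fold change 2.32, SE 0.51, limma adjusted p = 0.00233) and JAK1 2.34-fold (1.23, SE 0.19, adjusted p = 0.000211). IRF3 was higher by 0.47 (SE 0.07, adjusted p = 0.000203) and STAT2 by 0.56 (SE 0.21, adjusted p = 0.0426). The STAT2 call is the least firm, as 8 of the 15 fits that each left out 1 replicate lost it and its adjusted p rose to 0.148 without Ov4Carbo7 replicate 2. IRF7 (0.94, adjusted p = 0.0516) and TLR3 (0.66, adjusted p = 0.0831) did not pass, although their groups did not overlap. The spread between Ov4Carbo replicates enters this fit, and without Ov4Carbo replicate 1 both passed with the same difference (adjusted p = 0.00136 for IRF7 and 0.00638 for TLR3). In all, the 3 values of Ov4Carbo7 lay above the 3 of Ov4Carbo4 for 7 of the 9 genes, with IRF1 and IRF9 the exceptions, and 67.3% of all genes did not overlap in one direction or the other.

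Against Ov4Carbo with its 3 replicates, 4 of 9 genes were higher in Ov4Carbo7 and 0 lower (36.6% of all genes passed, 18.5% higher and 18.2% lower), and these 4 did not overlap (42.3% of all genes). The 4 were TLR3 higher by 1.10 (SE 0.30, limma adjusted p = 0.0123), JAK1 by 0.93 (SE 0.19, adjusted p = 0.00281), IRF3 by 0.70 (SE 0.07, adjusted p = 3.56e-05) and TYK2 by 0.37 (SE 0.11, adjusted p = 0.0152). Without Ov4Carbo replicate 1 the count was 6, where 43.6% of all genes passed, as IFIH1 (1.72, adjusted p = 0.0056) and IRF7 (0.61, adjusted p = 0.036) were then higher too. Without that replicate, Ov4Carbo and both clones carry title numbers of different series, so line and series cannot then be told apart. With it, they can be told apart through that sample alone, as Ov4Carbo replicates 2 and 3 belong to the other series. With replicate 1, IFIH1 differed by 1.06 (adjusted p = 0.127) and IRF7 by 0.04 (adjusted p = 0.942). The TLR3 call was lost without Ov4Carbo replicate 2 (0.0538) or replicate 3 (0.0508), and the TYK2 call without replicate 3 (0.0527). In Ov4Carbo4, 2 of 9 passed against Ov4Carbo (42.2% of all genes, 23.1% higher and 19.2% lower), STAT2 at -0.59 (adjusted p = 0.0398) and IRF3 at 0.23 (adjusted p = 0.0287). The groups did not overlap for 3 of 9 genes (49.6% of all genes). Without Ov4Carbo replicate 1 STAT2 was at -0.33 (adjusted p = 0.138), IRF3 was still 0.23 higher (adjusted p = 0.0424), and TLR3 was higher by 0.88 (adjusted p = 0.00335). Without replicate 1, 46.3% of all genes passed. The IRF3 call was lost without Ov4Carbo replicate 2 (0.0686) or any 1 of the Ov4Carbo4 replicates (0.0526 to 0.0882), and the STAT2 call without Ov4Carbo4 replicate 1 (0.131), among others.

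The 2 drug-selected populations differed in 4 of 9 genes (34.2% of all genes passed), 2 of them higher in Ov4Cis (18.1% of all genes) and 2 lower (16.1%). These 4 did not overlap, nor did 41% of all genes. JAK1 was 0.92 higher in Ov4Cis (SE 0.19, limma adjusted p = 0.00316) and TYK2 0.41 higher (SE 0.11, adjusted p = 0.0103). IFIH1 was lower, at -2.06 (SE 0.51, adjusted p = 0.00868), and so was IRF3, at -0.38 (SE 0.07, adjusted p = 0.00184). Without Ov4Carbo replicate 1 the IFIH1 value was -1.40 (adjusted p = 0.0173), and TLR3 was then higher in Ov4Cis by 1.15 (adjusted p = 0.000673), against 0.71 (adjusted p = 0.084) with it (42.5% of all genes passed without replicate 1). When the fit held only these 2 lines, 0 of the 9 passed, with adjusted p between 0.0596 and 0.0973 for the 4 genes. The share of all genes that passed in that smaller fit is not given here. Ov4Cis thus had the lowest IRF3 mean of the 5 lines and raised TLR3, with no detected change of IFIH1. Against Ov4Cis, 2 of 9 genes passed in Ov4Carbo7 (39.2% of all genes), IFIH1 at 3.12 (adjusted p = 0.000462) and IRF3 at 1.08 (adjusted p = 5.08e-07). IRF7 differed by 0.83 (adjusted p = 0.0984) and passed without Ov4Carbo replicate 1 (adjusted p = 0.00436). The title numbers of Ov4Cis and of both clones belong to different series, so line and series cannot be told apart here. IFIH1 and IRF3 were both higher in Ov4Carbo7, and 0 of the 9 were lower. Of all genes, 19.1% were higher and 20.1% lower there, and 14.7% differed by at least 1 log2 unit. The groups did not overlap for 6 of 9 genes (56.5% of all genes). In Ov4Carbo4 3 passed (44% of all genes), IRF3 higher at 0.61 (adjusted p = 3.76e-05; 22.3% of all genes were higher), and JAK1 at -1.22 (adjusted p = 0.000308) and TYK2 at -0.28 (adjusted p = 0.0463) lower, as were 21.7% of all genes. These 3 did not overlap (63.6% of all genes), and 1 of them differed by at least 1 log2 unit (16.8% of all genes).

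Ordered by line mean, neighbours differed in few cases. For IRF3 the order ran from the parental line and Ov4Carbo7, which did not differ (adjusted p = 0.954), to Ov4Carbo4 (0.47 lower, adjusted p = 0.000203), Ov4Carbo (0.23 lower, adjusted p = 0.0287) and Ov4Cis (0.38 lower, adjusted p = 0.00184), so each further step passed the limma test. For JAK1 the only step that passed was from the parental line to Ov4Carbo (0.74, adjusted p = 0.0114), below Ov4Carbo7 and Ov4Cis and above Ov4Carbo4. IFIH1 ran from Ov4Carbo7 through Ov4Carbo, Ov4Carbo4 and the parental line to Ov4Cis, and 0 of its 4 steps passed. TLR3 ran from Ov4Carbo7 through Ov4Cis, Ov4Carbo4 and Ov4Carbo to the parental line, and IRF7 from Ov4Carbo7 through Ov4Carbo, Ov4Cis and Ov4Carbo4 to the parental line, again with 0 of 4 steps passing. For TYK2, STAT2, IRF1 and IRF9, 0 of 4 steps passed as well.

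Other genes of the pathway were counted by lists written from general knowledge. As a background to these counts, 19.8% of all genes rose and 16.4% fell in Ov4Cis, 17.7% and 16.2% in Ov4Carbo, 21.6% and 18% in Ov4Carbo4, and 22.2% and 20.4% in Ov4Carbo7. Of 19 further sensors and adaptors, 13 were higher and 1 lower in Ov4Carbo7 than in the parental line, with a median log2 fold change of 0.68, where that of all genes was 0.02. IFI16, a DNA sensor, rose by 1.85 there (SE 0.23, limma adjusted p = 4.66e-05) and RIGI, the sensor of RNA with a 5′ triphosphate, by 1.10 (SE 0.41, adjusted p = 0.0451). TRAF3, an adaptor, had a log2 fold change of -0.89 (adjusted p = 8.66e-05). In Ov4Carbo4 5 were higher and 7 lower, RIGI among the latter at -1.30 (adjusted p = 0.0231), with TRIM25, a ubiquitin ligase that activates RIG-I, at 0.96 (adjusted p = 0.00114). In Ov4Cis 6 were higher and 2 lower, and in Ov4Carbo 5 and 4, or 5 and 7 without replicate 1, when the median turned from 0.05 to -0.04. With 19 genes, counts such as these were not tested against the background. Without replicate 1, 40.4% of all genes passed in Ov4Carbo. CGAS, which senses cytosolic DNA, was higher in both Ov4Cis and Ov4Carbo (0.82 and 1.09, adjusted p = 0.00315 and 0.000664). STING1, which acts after it, was lower in both (-0.93 and -0.83, adjusted p = 0.00313 and 0.00815). RIGI thus followed IFIH1 in separating the clones, with a difference of 2.399 (SE 0.41, adjusted p = 0.000353).

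The 6 receptor chains measured changed by less than 1 log2 unit, except IFNLR1, the lambda interferon receptor, at -1.06 in Ov4Cis (SE 0.14, limma adjusted p = 8.56e-05). IL10RB, its partner chain, rose in Ov4Cis (0.97, adjusted p = 0.00012), Ov4Carbo (0.71, adjusted p = 0.00175) and Ov4Carbo4 (0.82, adjusted p = 0.00048). IFNAR2, a chain of the type I receptor, rose by 0.61 in Ov4Cis (adjusted p = 0.000609). In Ov4Carbo7 0 rose and 1 fell, IFNGR2 at -0.54 (adjusted p = 0.0011). In Ov4Carbo 1 rose and 0 fell, or 1 and 2 without replicate 1. The 7 interferon genes of the list were not found by symbol among the genes of the deposited data, so their levels are unknown here. Of the 8 other kinases and STATs, 5 rose and 0 fell in both Ov4Cis and Ov4Carbo7, where 19.8% and 22.2% of all genes rose. JAK2, a kinase of the interferon gamma receptor, rose by 0.91 in Ov4Cis (SE 0.15, adjusted p = 0.000395) and by 0.87 in Ov4Carbo7 (SE 0.15, adjusted p = 0.000521). In Ov4Carbo 2 rose and 1 fell, and in Ov4Carbo4 2 rose and 3 fell, STAT5A (-0.86, adjusted p = 0.00659) and STAT5B (-0.48, adjusted p = 0.00491) among the latter.

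Of the 6 other IRF-related genes, 0 rose and 1 fell in Ov4Cis, 1 and 2 in Ov4Carbo, 1 and 0 in Ov4Carbo4, and 1 and 3 in Ov4Carbo7, where IRF2BP1, a corepressor, stood at -0.62 (limma adjusted p = 0.000382). Of 18 negative regulators, 7 rose and 1 fell in Ov4Carbo7, with NLRC5 at 1.27 (SE 0.27, adjusted p = 0.00231) and PIAS2, an inhibitor of STAT signalling, at 1.04 (SE 0.16, adjusted p = 0.000224). NLRC5 is also known as the activator of MHC class I genes. In Ov4Carbo4 3 rose and 3 fell, and SOCS3, a feedback inhibitor of JAK kinases, fell by 1.98 on the log2 scale (SE 0.14, adjusted p = 6.49e-07). SOCS3 was also lower in Ov4Carbo (-0.83, adjusted p = 0.00094), so the 2 lines with less JAK1 also had less SOCS3. In Ov4Carbo 1 rose and 2 fell, or 2 and 4 without replicate 1, and in Ov4Cis 2 and 2. Apart from the 7 rises in Ov4Carbo7, these counts of 18 lie near or below the shares of all genes that rose or fell.

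The 42 interferon-stimulated readout genes, which lie downstream of ISGF3, were higher in 27 cases and lower in 2 in Ov4Carbo7, with a median log2 fold change of 1.46, beside 22.2% and 20.4% of all genes. In Ov4Carbo 19 were higher and 0 lower (median 1.06), and without its replicate 1, 13 were higher and 3 lower (median 0.46). In Ov4Cis 12 were higher and 3 lower (median 0.52), and in Ov4Carbo4 6 and 7 (median 0.15), near the 21.6% and 18% of all genes. OASL, a 2′-5′ oligoadenylate synthetase family member, rose by 3.80 in Ov4Carbo7 (SE 0.41, limma adjusted p = 1.48e-05) and by 2.18 in Ov4Carbo4 (SE 0.41, adjusted p = 0.00119). Their per-sample median lay between 1.23 and 1.56 in the parental line, 1.69 and 1.87 in Ov4Carbo4, 1.72 and 2.76 in Ov4Cis, and 2.79 and 3.50 in Ov4Carbo7, and was 4.06 in Ov4Carbo replicate 1, and 2.39 and 2.14 in its replicates 2 and 3, within the range of Ov4Cis. Of the 35 readout genes with a promoter in the RefSeq table, 25 (71.4%) held the ISRE core that IFIH1 also holds.

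Over the 15 samples IRF7 followed this median most closely, with a Pearson r of 0.97, and 0.97 again without Ov4Carbo replicate 1. The r was 0.87 for IFIH1, 0.69 for STAT2, 0.68 for TLR3 and 0.41 for IRF1. For TYK2 it was 0.37, for IRF9 0.19, for JAK1 0.17 and for IRF3 -0.09. Without Ov4Carbo replicate 1 the r was 0.84 for IFIH1, 0.71 for TLR3, 0.49 for STAT2 and 0.17 for IRF1, so the values of STAT2 and IRF1 rest in part on that sample. TYK2, not known as inducible, then stood at 0.57, above STAT2 and IRF1, and the inducible IRF9 at 0.13. JAK1 stood at 0.28 and IRF3 at 0.004. The inducible genes were thus not set apart from the others by this r. After subtraction of line means, over all 15 samples, the r was 0.97 for IRF7, 0.92 for IFIH1, 0.83 for both TLR3 and IRF1, and 0.59 for STAT2. For TYK2 it was 0.28, for JAK1 0.27, for IRF9 -0.14 and for IRF3 -0.36. These are descriptions over samples that share lines and a normalisation, and the replicates within lines include Ov4Carbo replicate 1. For IRF7, IFIH1, TLR3, IRF1 and STAT2 the replicates spread most in Ov4Carbo. How far the r after subtraction rests on its replicate 1 was not tested. Among the 11971 other genes whose mean was at least 1 log2 RPKM, the profile of IRF7 was most like those of MX1 (r = 0.98) and PARP14 (0.96), and that of IFIH1 most like those of IFIT2 and IFIT3 (0.96 each), all 4 interferon-stimulated genes. STAT2 was most like PLSCR1 and IRF2 (0.85 each), TLR3 most like TMEM104 (0.95) and DAB2 (0.94), and IRF3 most like KDM6A (0.96) and GPRC5A (0.95). For JAK1 they were STAT5A (0.95) and BICC1 (0.94), for TYK2 CRTC1 (0.92), for IRF1 CREB3 (0.88) and TRIM8 (0.87), and for IRF9 CAPRIN2 and EIF4A2P4 (0.77 each). Among the 9 genes themselves, the closest pair was IFIH1 and IRF7 (r = 0.89).

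**Figure D4:**
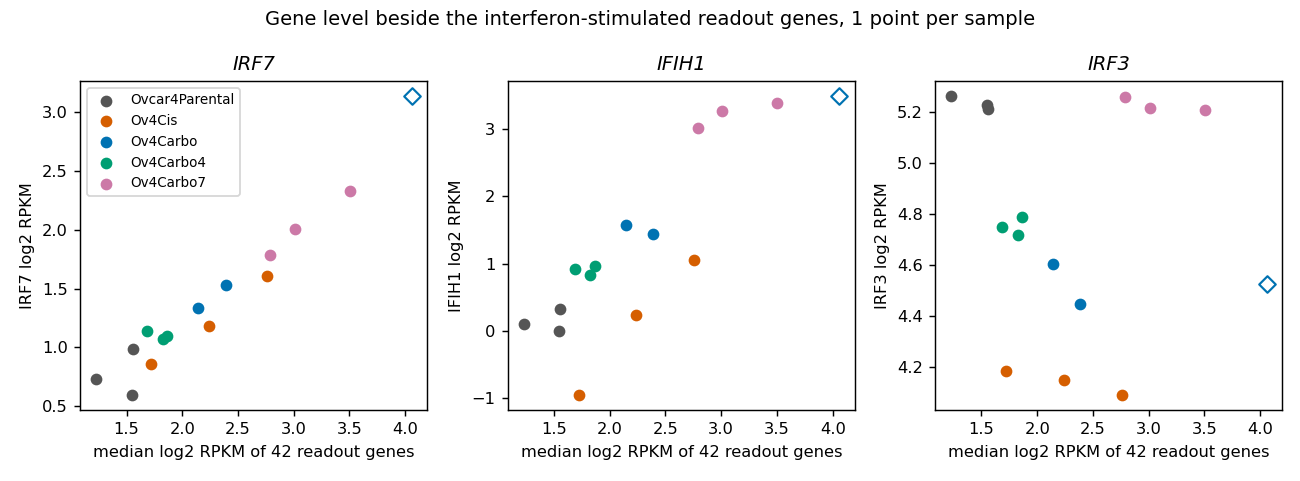
Level of IRF7, IFIH1 and IRF3 (vertical axes, log2 RPKM) against the median of 42 interferon-stimulated readout genes (horizontal axes, log2 RPKM), 1 point per sample, coloured by line, with Ov4Carbo replicate 1 as an open diamond. IRF7 lies along a line through all 5 lines (r = 0.97), while IRF3 forms separate levels per line, with Ov4Carbo7 and the parental samples both near 5.2 at different readout levels.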

How the data were processed

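RNA was measured by sequencing of polyA-selected libraries from 15 cultures, per the labels' protocols. The deposited table holds log2 RPKM after conditional quantile normalization (cqn) by the authors, which models GC content and length and aligns the samples' distributions, so differences in total RNA are not measurable. The submitters' processing notes name BWA 0.7.15-r1140, HTSeq, hg19 and GRCh37 without their roles. BWA is not built for spliced reads, and the handling of reads across exon junctions, of strand and of shared exons is not given in the sources used here. Symbols matched 16448 of 16604 genes.

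The values were fitted as deposited by limma 3.58.1 under R 4.3.3, using lmFit then eBayes with 1 coefficient per line over all 15 samples. Two-sided p-values were corrected after Benjamini and Hochberg across the 16604 genes, separately in each of 10 contrasts. A gene passed, and is said to have risen or fallen, at an adjusted p under 0.05. All 9 genes are named; from each pathway list at most the 2 largest rises and falls per comparison with a mean of at least log2 RPKM 1 could be named, and for each of the 9 the 2 genes with the highest Pearson r. A few results that this rule covers are not reported here. EPCAM, CDH1, PAX8, WT1, CD14, CDH5 and COL1A1, and BCL2L12 and IRF1-AS1 as neighbours, were named after their values were seen. The genes and lists were chosen with earlier results of these data known. The lists held 25 sensors and adaptors (19 measured), 13 interferons and receptors (6), 8 kinases and STATs (8), 8 IRF-related genes (6), 18 negative regulators (18), 42 readout genes (42) and markers of serous epithelium (11 of 12), immune cells (1 of 7), endothelium (3 of 4) and fibroblasts (4 of 6). Data were also simulated from each gene's mean over the 15 samples and its SD within lines, with 200 genes changed by 2 log2 units in Ov4Carbo7. Against the parental line 182 of the 200 were called, and 3 others falsely, among 16604. The calls there needed an adjusted p under 0.05 and at least 1 log2 unit. No other line difference and no series or single-sample effect was simulated, so error rates in the real data are not given by it. The replicates are described as biological. Tables and figures used Python 3.11.15, pandas 2.3.3 and matplotlib 3.10.9.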

Additional observations from a re-analysis of the deposited data

How the results depend on the processing

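Among the changes of 9 genes in 8 comparisons, 28 passed. Of these, 10 did so under every alternative that could be computed and 20 in all 15 fits that left out 1 replicate; 16 of the other 44 passed under at least 1 alternative. Quantile normalization and centring on the sample median changed no call. The sample medians were already 2.77 in each sample and cqn had aligned the distributions. These settings could therefore change little, and the result says little about robustness. A replicate block changed no call either (4 of 9 genes in Ov4Carbo7 against the parental line), and same-numbered samples did not deviate together, with correlations from -0.394 to 0.437 and 4 of 15 samples closest to their own number.

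A term for the title series, estimated from Ov4Carbo replicate 1 against replicates 2 and 3 alone, moved the clones in different ways. Against the parental line 0 genes then passed in Ov4Carbo7, where 4 had, and 5 in Ov4Carbo4, where 3 had. In Ov4Carbo4 JAK1 and IRF3 still passed, TLR3 did not, and STAT2 (-1.06), IRF1 (-0.90) and IRF7 passed as lower. Against Ov4Carbo 2 passed in Ov4Carbo7, where 4 had, and 3 in Ov4Carbo4, where 2 had. In Ov4Carbo7 only IRF3 kept its call (0.70, limma adjusted p = 0.00144), and IRF7 newly passed as lower (adjusted p = 0.0159). TLR3 (0.559), JAK1 (0.108) and TYK2 (0.199) lost theirs. In Ov4Carbo4 STAT2 kept its call as lower (-1.10), IRF3 lost it (adjusted p = 0.128), and IFIH1 (-2.59) and IRF7 (-2.04) newly passed as lower. IRF7 turned to -0.44 (Ov4Carbo7), -1.38 (Ov4Carbo4) and -1.10 (Ov4Carbo7 against Ov4Carbo), and TLR3 to -0.27 in Ov4Carbo4. With this term IFIH1 in Ov4Carbo7 was 1.10 (adjusted p = 0.233) and TLR3 0.38 (adjusted p = 0.375). The share of all genes that passed with this term is not given here, so these counts have no background. A sample effect and a series effect cannot be told apart here.

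With only the lines compared in the fit, the count was 1 in Ov4Carbo against the parental line, 0 in Ov4Carbo4 and 1 in Ov4Carbo7 against Ov4Carbo, and 0 in Ov4Cis against Ov4Carbo. At an adjusted p under 0.01 it was 2 in Ov4Carbo and 2 in Ov4Carbo7 against the parental line, and 0 in Ov4Carbo4 and 2 in Ov4Carbo7 against Ov4Carbo. Without 1 replicate the count ran from 0 to 4 in Ov4Carbo4 against Ov4Carbo and from 2 to 6 in Ov4Carbo7 against Ov4Carbo. The cause of these shifts was not tested, beyond the fewer samples in such fits. TLR3 and IRF9 were below the limit of mean log2 RPKM 1 and have no value under that filter. Counting error is unknown, and the low levels of IRF9 limit it most.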
